A study of Mus musculus with 63 samples.

Results

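The class I and II histone deacetylases are the 10 genes Hdac1 to Hdac10. They were taken by symbol from a table of 24766 genes, in which each has 1 identifier, and were described across small intestinal tumours of the mouse. All 10 passed the filter on low values, a mean of at least 10 normalised counts, in every comparison. The libraries came from bulk polyA RNA sequencing of tumours from 2 Apchet mice, 1 female and 1 male, which carried Villin-creER, Apc fl/+ and the Rosa fl/Confetti reporter. Both mice received 4 mg of tamoxifen at an age above 8 weeks, which removes 1 Apc allele in the intestinal epithelium where Villin drives Cre, and the mutagen ENU at 200 mg per kg followed after 10 days. No untreated and no ENU-free tissue was among the libraries. In 20 tumours, 10 per mouse, the regions of different Confetti colour were dissected apart, which gave 20 larger (major) and 20 smaller (minor) clones, and 23 further tumours (10 female, 13 male) were taken undivided. The study speaks of 20 monoclonal tumours, and which of the 23 they are is not given, so all 23 were used. Which clone was the major one came from the study's source data by sample name, since the labels give only a letter to each piece of a tumour. The labels also give a gut segment, SI10, SI20 or SI30. Mouse and sex coincide, so they cannot be told apart, and tumours of 1 mouse are not separate animals: p-values measure the spread between tumours.

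Histone deacetylases remove acetyl groups from lysines of histones and other proteins, which as a rule tightens chromatin and lowers transcription. The class I enzymes are mainly nuclear, are expressed in most tissues and work inside corepressor complexes: Hdac1 and Hdac2 in NuRD, SIN3, CoREST and MiDAC, and Hdac3 in the NCoR complex. Class IIa enzymes shuttle between nucleus and cytoplasm, have little catalytic activity of their own and hold MEF2 transcription factors inactive, and the class IIb enzymes act largely on substrates outside chromatin, tubulin in the case of Hdac6. In the gut epithelium Hdac1 and Hdac2 are known for partly redundant roles in keeping crypts dividing and in lineage choice.

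The tissue label was checked first. All 8 epithelial markers were above 0 in every library, with medians of their summed level of 441690 normalised counts for major clones, 400294 for minor clones and 438090 for undivided tumours. Fibroblast markers summed to medians of 7817, 5874 and 4082 in the same order, so stroma was present in each group. Library sums ran from 26140227 to 45909885 normalised counts, which are sums after scaling and do not give the depth. From the smallest values, 1 read was estimated to be worth 0.580 to 2.34 normalised counts. The share of the 18S ribosomal RNA gene Rn18s had medians of 1.24% (major), 6.19% (minor) and 3.11% (undivided).

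Per kilobase of transcript, 3 of the 4 class I enzymes stood about an order of magnitude above all others. Hdac1 had a median of 1906 normalised counts per kb over 63 libraries (1388 to 2486), Hdac2 of 1200 (627 to 1887) and Hdac3 of 1018 (770 to 1260). Hdac1 was above Hdac2 in 63 of 63 libraries and Hdac2 above Hdac3 in 51. The class II enzymes Hdac5 (110), Hdac6 (101), Hdac7 (69.6), Hdac4 (65.7) and Hdac10 (54.0) and the class I enzyme Hdac8 (78.8) followed with overlapping ranges, and Hdac3 exceeded the next of them, Hdac5, in 63 of 63 libraries. The neighbours Hdac5 and Hdac6 kept their order in 36 of the 63 libraries and Hdac7 and Hdac4 in 38. Hdac9 was lowest, with a median of 2.73 normalised counts per kb and a highest value of 14.1, below Hdac10 in 63 of 63 libraries. The lengths are those of 1 reference transcript per gene, so levels of genes that use other isoforms would move.

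**Figure D1:**
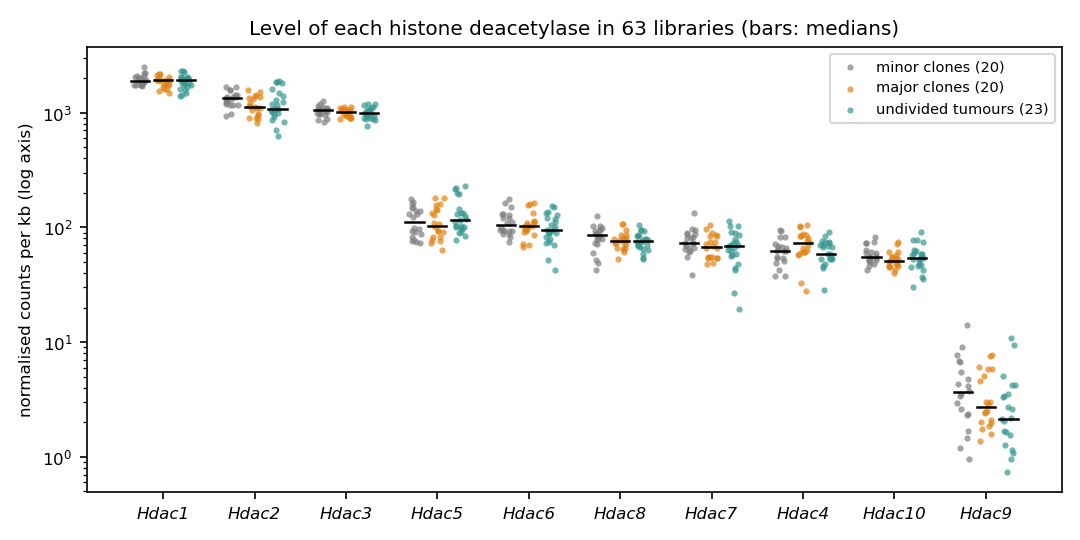
Level of each histone deacetylase (x axis, ordered by median) in normalised counts per kb on a log axis, with 1 point per library in minor clones, major clones and undivided tumours and bars at the group medians. Hdac1, Hdac2 and Hdac3 lie at 627 or more in every library and Hdac9 at 14.1 or less. The 2 undivided tumours in which Hdac9 is listed at 0 are not drawn.

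The members also differed in how much they varied. On the log2 scale the SD over 63 libraries was 0.14 for Hdac3 and 0.18 for Hdac1, 0.34 for Hdac2, 0.30 for Hdac8 and Hdac10, 0.40 to 0.46 for Hdac4, Hdac5, Hdac6 and Hdac7, and 1.24 for Hdac9. Hdac3 and Hdac1 also varied least within tumours: the clone gap (log2 of the major clone minus log2 of the minor clone) of Hdac3 had an SD of 0.11, and 0.1% of the genes tested had a lower one. The clone gap of Hdac1 had an SD of 0.18 (3.1% of genes were lower) and that of Hdac2 0.30 (23.1% were lower), against a median of 0.49 over all genes. These shares are over genes of all levels above the filter. Hdac1, Hdac2 and Hdac3 are the members with the highest levels and Hdac9 has the lowest. Shares among genes of a like level were not computed, so the spread is not read apart from the level.

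The first comparison, major against minor clones of the same tumour, shows whether Hdac2 is alone in its direction. It was not alone in sign: the mean clone gap was below 0 for 9 of 10 members, all but Hdac4, beside 48.2% of the 16428 genes tested. None of the 10 passed the adjusted threshold of 0.05 in limma's moderated test with tumour as a block, where 1.14% of all genes did, and Hdac2 had the only unadjusted p under 0.05 (beside 22.4% of all genes). In size and regularity Hdac2 came first among the class I enzymes, and Hdac4 pointed the other way. In bulk RNA, fewer cells of a type and less RNA per cell cannot be told apart.

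Hdac2 ranged from 1707 to 3329 normalised counts in major clones (median 2375) and from 1958 to 3555 in minor clones (median 2821). The ranges overlapped over most of their length, but within tumours the major clone held less in 16 of 20 cases, 8 of 10 in each mouse. Of all genes 3.04% were lower in the major clone in 16 or more tumours. The study had already plotted Hdac2 for these same clone pairs with a paired Wilcoxon test, a different test from the one used here. It did so where it describes minor clones as enriched for stem cell or replicative genes. The gene was thus singled out with its values known. Its sign count and this share are therefore no separate support. The mean gap was -0.20 (SE 0.07, 95% interval -0.34 to -0.06, adjusted p = 0.0887 over all genes, limma). It was -0.22 ± 0.34 (SD, n = 10) in the female and -0.18 ± 0.27 (n = 10) in the male mouse. The gap was deepest in female tumour 26, at -0.82 (1707 against 3012 normalised counts), and in female tumour 22, at -0.80 (2045 against 3555), whose major clone was labelled SI20 and minor clone SI10. Female tumour 19 (0.23), female tumour 23 (0.05), male tumour 22 (0.13) and male tumour 31 (0.24) had the opposite sign. Without female tumour 19 the gap of Hdac2 was -0.22 and passed the threshold (adjusted p = 0.0499). Over all ways to leave out 1 tumour it lay between -0.23 and -0.17, and no other single tumour brought it past the threshold.

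Hdac1, the closest relative of Hdac2 and its partner in the same complexes, ranged from 3023 to 4450 normalised counts in major clones (median 3897) and from 3477 to 5081 in minor clones (median 3856). The major clone held less in 12 of 20 tumours, with a mean gap of -0.07 (SE 0.04, interval -0.16 to 0.03). Hdac3, the enzyme of the NCoR complex, ranged from 2496 to 3183 normalised counts in major and from 2349 to 3553 in minor clones. It was lower in 13 of 20, with a mean gap of -0.04 (SE 0.03, -0.11 to 0.03). Hdac8, a class I enzyme that deacetylates cohesin, ranged from 105 to 216 (median 151) and from 84.7 to 250 (median 170). It was lower in 14 of 20, with a mean gap of -0.06 (SE 0.11, -0.30 to 0.17). Its sign rested on the male mouse: the gap was -0.30 ± 0.48 there and 0.17 ± 0.45 in the female mouse (SD, n = 10 each). The difference between the mice was -0.46 (SE 0.21, p = 0.0411, adjusted p = 0.642 over all genes, limma). No member's gap differed between the mice after adjustment, and 0% of 16428 genes did. This test was chosen after seeing the data.

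**Figure D2:**
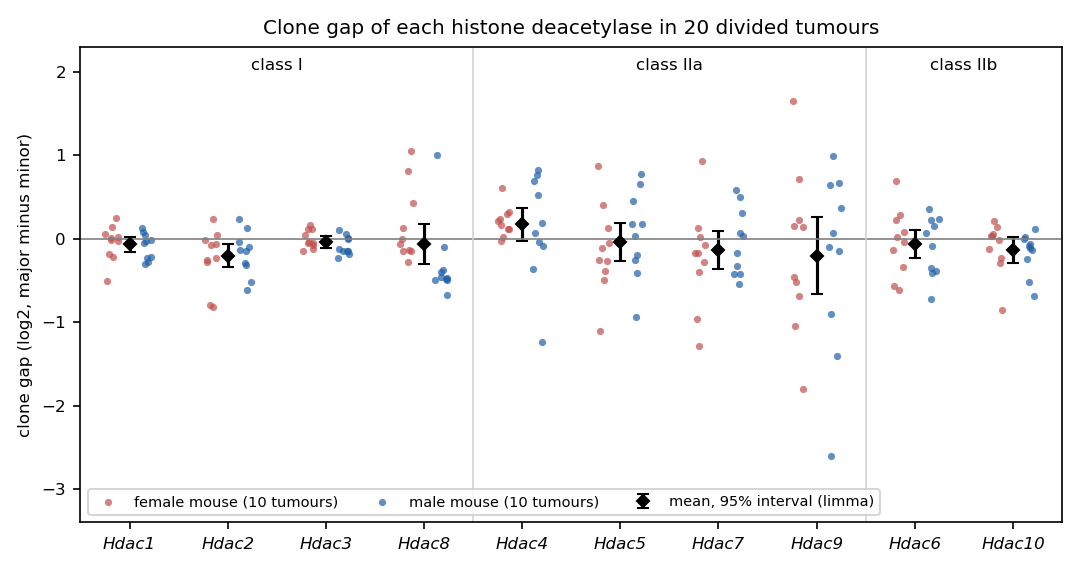
Clone gap (log2 of the major minus log2 of the minor clone, y axis) of each histone deacetylase, with 1 point per tumour (10 of the female and 10 of the male mouse) and the mean with its 95% interval from limma. The interval of Hdac2, -0.34 to -0.06, is the only one that leaves out 0, and the mean of Hdac4 is the only one above 0.

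Among the class IIa enzymes the signs were mixed. Hdac4, known for binding MEF2 and for roles in muscle and bone, ranged from 241 to 905 normalised counts in major clones (median 627) and from 323 to 825 in minor clones (median 542). It was higher in the major clone in 15 of 20 tumours, 9 of 10 in the female and 6 of 10 in the male mouse; 7.55% of all genes were higher in at least 15. Its mean gap was 0.17 (SE 0.10, interval -0.03 to 0.37, adjusted p = 0.307). The gap ran from -1.24 in male tumour 19 (241 against 571 normalised counts) to 0.82 in male tumour 22 (573 against 323).

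The other class IIa enzymes had wide gaps and intervals that held 0. Hdac5 had less in the major clone in 11 of 20 tumours (mean gap -0.04, SE 0.11, interval -0.27 to 0.19), and Hdac7, known from endothelium and thymocytes, in 12 of 20 (-0.13, SE 0.11, -0.36 to 0.09). Hdac9 was lower in 10 of 20 (-0.20, SE 0.22, -0.66 to 0.26). Its mean gap was of the size of that of Hdac2, but its 20 gaps reached from -2.61 to 1.65, and leaving out 1 tumour moved the mean between -0.30 and -0.08 (for Hdac7 between -0.19 and -0.07). The class IIb tubulin deacetylase Hdac6 was likewise lower in 10 of 20 (-0.06, SE 0.08, -0.23 to 0.11), and Hdac10, a polyamine deacetylase, in 13 of 20 (-0.14, SE 0.07, -0.29 to 0.02). Major and minor clones overlapped for all of these: the medians were 540 and 576 normalised counts for Hdac5, 501 and 546 for Hdac7, 494 and 499 for Hdac6 and 131 and 143 for Hdac10. Exons of Hdac5, Hdac7 and Hdac10 overlap exons of G6pc3, Slc48a1 and Gm62406 on the other strand, and Mir8101 lies within Hdac5 on its own strand. Whether reads of these genes were shared was not tested.

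Seen by tumour, the number of members lower in the major clone ran from 2 of 10 in female tumour 19 to 9 of 10 in male tumour 26. It was 6 in 8 tumours and 7 in 5. The median gap of the 10 members ran from -0.32 in male tumour 26 to 0.20 in female tumour 19, while the median gap of all genes stayed between -0.02 and 0.04 in every tumour. The median of the 10 mean gaps was -0.07, and that of all genes 0.01.

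A gap that is large for Hdac2 and small for another gene does not show that they differ, so the gap of Hdac2 minus that of each gene was tested in the same tumours. Hdac2 entered as a gene the study had already plotted for these clones, and the test shares that choice. Of the 9 other members, Hdac4 alone passed (-0.37, SE 0.12, interval -0.62 to -0.13, adjusted p = 0.034), and the gap of Hdac2 was below that of Hdac4 in 17 of 20 tumours. In this test 22.4% of 16427 genes passed, 69 below and 3614 above the gap of Hdac2. Leaving out 1 tumour moved that number of genes between 1185 and 5356, and it was 0 in the female and 545 in the male mouse alone, so no order between the share of members and that of all genes is read from it. The call was lost without any 1 of 7 tumours (female 22, 26 and 30, male 25, 26, 28 and 29; adjusted p up to 0.0673, differences -0.37 to -0.32) and in either mouse alone (-0.43 with adjusted p = 0.307 in the female, -0.31 with adjusted p = 0.337 in the male mouse). Hdac2 was below Hdac6 in 16 of 20 tumours (-0.14, SE 0.07), below Hdac3 in 13 (-0.16, SE 0.07) and below Hdac1 in 12 (-0.13, SE 0.07), with adjusted p of 0.142, 0.104 and 0.137. The interval for Hdac3, -0.31 to -0.01, left out 0 before adjustment over genes. For Hdac5 (-0.16, SE 0.14), Hdac8 (-0.14, SE 0.13), Hdac7 (-0.07, SE 0.10), Hdac10 (-0.07, SE 0.11) and Hdac9 (0.00, SE 0.21) the intervals held 0. For these 8 members the test does not show that their gaps equal that of Hdac2: the interval for Hdac1, for example, reached from -0.28 to 0.01.

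**Figure D3:**
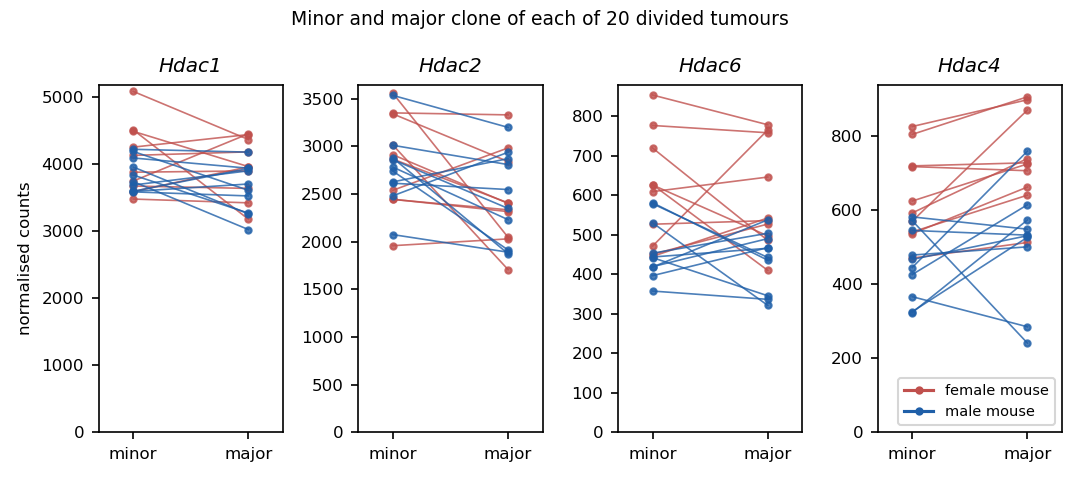
Normalised counts (y axes, each from 0) of Hdac1, Hdac2, Hdac6 and Hdac4 in the minor and the major clone of 20 divided tumours, with a line per tumour coloured by mouse. Lines of Hdac2 fall in 16 of 20 tumours and lines of Hdac4 rise in 15.

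The promoters of Hdac2 and Hdac4, whose mean clone gaps had opposite signs, follow. That of Hdac6 is added, the member whose gap followed that of Hdac2 most closely. Each runs from 250 bases before to 50 after the annotated start (RefSeq, GRCm38.p6), 5′ to 3′ on the strand of the gene. Of the 10 members, 7 had an entry in the promoter table, with 11 starts in all. Capitals mark the motifs searched on both strands: the E-box CACGTG, the GC box GGGCGG, the E2F motifs TTTGGCGC and TTTCGCGC, and CCAAT. No 2 of these motifs contain each other. The windows are chr10:36974294-36974593 on the plus strand for Hdac2, chrX:7947840-7948139 on the minus strand for Hdac6 and chr1:92180292-92180591 on the minus strand for Hdac4.
Hdac2: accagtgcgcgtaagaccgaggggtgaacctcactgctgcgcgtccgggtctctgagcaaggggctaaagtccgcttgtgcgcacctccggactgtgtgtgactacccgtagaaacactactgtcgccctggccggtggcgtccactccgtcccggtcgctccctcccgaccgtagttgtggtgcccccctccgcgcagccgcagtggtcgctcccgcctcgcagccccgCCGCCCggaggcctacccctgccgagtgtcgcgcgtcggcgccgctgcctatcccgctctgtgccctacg
Hdac6: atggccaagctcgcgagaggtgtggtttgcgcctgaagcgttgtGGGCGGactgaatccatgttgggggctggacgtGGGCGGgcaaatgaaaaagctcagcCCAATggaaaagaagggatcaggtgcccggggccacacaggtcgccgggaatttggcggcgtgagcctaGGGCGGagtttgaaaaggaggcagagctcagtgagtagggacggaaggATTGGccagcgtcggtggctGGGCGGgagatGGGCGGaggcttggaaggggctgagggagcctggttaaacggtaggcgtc
Hdac4: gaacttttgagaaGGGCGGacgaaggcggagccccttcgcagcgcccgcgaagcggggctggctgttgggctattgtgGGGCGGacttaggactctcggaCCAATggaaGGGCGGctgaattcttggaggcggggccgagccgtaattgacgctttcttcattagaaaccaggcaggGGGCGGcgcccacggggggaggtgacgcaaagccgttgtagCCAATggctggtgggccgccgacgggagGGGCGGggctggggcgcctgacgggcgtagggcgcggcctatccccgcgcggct
The Hdac2 window held 1 GC box and none of the other motifs, with 69.7% G and C. The Hdac6 and Hdac4 windows each held 5 GC boxes and 2 CCAAT motifs, with 62.0% and 68.0% G and C. Of 32851 promoters in the table, 35.7% held a GC box, 37.4% a CCAAT motif, 7.2% an E-box and 0.8% an E2F motif. A match is a description of letters and not a binding site.

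In GRCm39 (Gencode M39, a later release than the one used for counting), Hdac2 (ENSMUSG00000019777) lies on chromosome 10 from 36850435 to 36877890, Hdac4 (ENSMUSG00000026313) on chromosome 1 from 91855937 to 92123421 and Hdac1 (ENSMUSG00000028800) on chromosome 4 from 129409895 to 129436631. Hdac6 (7795684 to 7814404) and Hdac8 (101328244 to 101549026) lie on the X chromosome. Hdac7 (97687372 to 97742383) and Hdac10 (89007505 to 89013076) lie on chromosome 15, Hdac5 on chromosome 11 (102085245 to 102121072) and Hdac9 on chromosome 12 (34097579 to 34967094). The values are sums over whole genes.

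The clone gaps of the partner complexes were read beside those of the enzymes, from 65 genes in 8 lists (other deacetylases, NuRD, SIN3, CoREST, NCoR, MiDAC, MEF2 factors and histone acetyltransferases), of which 63 were tested. None passed the adjusted threshold, and 9 had an unadjusted p under 0.05 (limma). Rbbp4, a histone-binding subunit shared by NuRD and SIN3, had the smallest p, with a gap of -0.22 (SE 0.06, adjusted p = 0.0584). The acetyltransferase coactivator Ncoa1 (0.29, SE 0.09, adjusted p = 0.0765) and Mideas, a subunit of MiDAC (0.20, SE 0.07, adjusted p = 0.12), had the opposite sign. Of the 63, 33 had a gap below 0. The medians of 7 of the lists were -0.03 for 8 other deacetylases, 0.01 for 11 NuRD genes, -0.03 for 13 SIN3 genes, -0.04 for 7 CoREST genes, 0.02 for 3 MiDAC genes, 0.10 for 3 MEF2 factors and 0.06 for 13 histone acetyltransferases.

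The gap of Hdac2 minus that of each partner passed for 17 of the 63 (27%), all with Hdac2 the lower, beside the 22.4% of all genes. The smallest p belonged to Mideas (-0.40, SE 0.10, adjusted p = 0.0197), the acetyltransferase Ep300 (-0.46, SE 0.12, adjusted p = 0.0207), Ncoa1 (-0.49, SE 0.13, adjusted p = 0.0211), Mef2d, a target of class IIa enzymes (-0.34, SE 0.09, adjusted p = 0.0211), and the SIN3 subunit Sap130 (-0.34, SE 0.10, adjusted p = 0.0246).

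Cell type markers were read beside the members. Secretory markers were on average 0.61 higher (log2) in the major clone, in 19 of 20 tumours, and Chgb (0.89, SE 0.17, adjusted p = 0.0207) and Atoh1 (0.69, SE 0.13, adjusted p = 0.0207) passed. Fibroblast markers were 0.59 higher (13 of 20 tumours), smooth muscle markers 0.61 (15 of 20), epithelial markers 0.16 (15 of 20), immune markers 0.32 (15 of 20), crypt stem markers 0.16 (13 of 20), endothelial markers 0.08 (10 of 20) and replication markers 0.09 (10 of 20). These are means over each list. Of 7 crypt stem markers 4 had a gap below 0 (median -0.07), and Olfm4 stood highest (1.58). The 6 endothelial markers were split, 3 above and 3 below 0 (median 0.14). The gap of Hdac2 was set against the gaps of Hdac1, Rn18s, fibroblast, secretory and replication markers over the 20 tumours. With Hdac1 Pearson's r was 0.47 (permutation p = 0.0367, adjusted p = 0.184 over 5 relations) and Spearman's rho 0.31 (permutation p = 0.18). Without the 2 tumours with the most extreme gaps of Hdac1 r was 0.15 (permutation p = 0.566), so on the deposited scale the relation rested on those tumours, and r was 0.48 within the female and 0.49 within the male mouse. The other 4 relations had r of 0.14 (Rn18s), 0.06 (fibroblast), -0.32 (secretory) and 0.35 (replication), with adjusted permutation p of at least 0.294. With libraries scaled to the same sum r with Hdac1 was 0.71 (adjusted permutation p = 0.0034), and 0.44 without the 2 tumours (permutation p = 0.0645). There r was 0.55 with replication markers (adjusted permutation p = 0.0288). With secretory markers r was -0.34 (adjusted permutation p = 0.245), and only rho passed (-0.51, adjusted permutation p = 0.0405). This scaling adds a shared term to all gaps of a tumour, which can raise r, and permutation does not remove it. No relation is read from these values. The part of these markers in the gap of Hdac2 was not tested further.

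By likeness alone, the genes whose clone gap followed that of Hdac2 most closely over 20 tumours, of 16427, were Pla2g12a (r = 0.87), Mbtps1 (0.86), Scml2 (0.83), Chsy1 (0.82) and Tpst1 (0.81). Hdac6 came at rank 54 (0.73), Hdac7 at 904 (0.51), Hdac1 at 1172 (0.47) and Hdac10 last of the members at 14054 (-0.37). For the log2 level centred on each mouse, over 63 libraries, the first were Ppat (0.83), Cct2 (0.83), Prps1l3 (0.82), Susd1 (0.81) and Ppid (0.80), with Hdac1 at rank 73 (0.71), Hdac6 at 355 (0.61) and Hdac7 at 573 (0.57). Among the 45 pairs of members, Hdac1, Hdac2 and Hdac6 were the most alike (0.61 to 0.71), and Hdac3 with Hdac5 (-0.47), Hdac3 with Hdac4 (-0.42) and Hdac2 with Hdac4 (-0.29) the least. These values share libraries and scaling and are a description.

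The next comparisons set the 23 undivided tumours against the minor and against the major clones, with mouse as a covariate. They share the undivided tumours, and dissection and clonality cannot be told apart in either. None of the 10 members passed against minor clones, where 3.7% of 16491 genes did, and none against major clones, where 0.0121% of 16510 did. At an unadjusted p under 0.05 there was 1 member against minor clones, beside 19.6% of all genes, and 0 against major clones, beside 12% of all genes. Cell type markers differed in the same comparisons. Against minor clones 2 of 7 secretory and 1 of 5 immune markers passed as higher and 1 of 6 endothelial markers as lower in undivided tumours. Against major clones no marker passed, fibroblast markers had a median of -0.80 (6 of 7 with an unadjusted p under 0.05) and endothelial markers of -0.46 (6 of 6 below 0). Their part in the members' differences was not tested.

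Hdac2 ranged from 1326 to 3991 normalised counts in undivided tumours (median 2288), a range that enclosed those of both clone classes. The log2 difference from minor clones was -0.15 (SE 0.10, interval -0.36 to 0.05, adjusted p = 0.419, limma) and that from major clones 0.05 (SE 0.11, -0.17 to 0.26). In the female mouse alone the difference from minor clones was 0.07, and the difference from major clones was -0.18 in the male mouse alone and -0.04 with libraries scaled to the same sum. The other class I enzymes differed from minor clones by -0.06 (Hdac1, SE 0.05), -0.06 (Hdac3, SE 0.05) and -0.09 (Hdac8, SE 0.10), and from major clones by 0.01 (SE 0.05), -0.01 (SE 0.05) and -0.01 (SE 0.08). All 3 signs turned in 1 mouse alone: against minor clones in the female mouse (Hdac1 0.06, Hdac3 0.06, Hdac8 0.13), and against major clones for Hdac3 in the female (0.07) and for Hdac1 (-0.07) and Hdac8 (0.02) in the male mouse. Against major clones Hdac1 also turned with the same sum (-0.08) and Hdac8 with quantile normalization (0.07).

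Hdac9 had the largest difference of the members in both. It was listed at 0 in 2 undivided tumours, male tumours of segment SI20, and reached 94.1 normalised counts (median 18.5), beside 8.29 to 122 in minor clones (median 31.6) and up to 66.4 in major clones (median 23.5). The groups overlapped. The log2 difference was -0.89 against minor clones (SE 0.40, p = 0.0309, adjusted p = 0.199, limma) and -0.68 against major clones (SE 0.38, adjusted p = 0.455), and both depend on the pseudocount of 1: with 0.1 they were -1.17 and -0.97. Against minor clones the difference was -0.36 in the female and -1.36 in the male mouse alone. The remaining class II enzymes differed from minor and from major clones by 0.14 (SE 0.12) and 0.18 (SE 0.12) for Hdac5, by -0.16 (SE 0.10) and -0.10 (SE 0.10) for Hdac6, by -0.21 (SE 0.14) and -0.08 (SE 0.14) for Hdac7, by -0.09 (SE 0.10) and 0.05 (SE 0.10) for Hdac10 and by -0.00 (SE 0.11) and -0.17 (SE 0.12) for Hdac4. Of 64 partner genes none passed in either. The smallest p against minor clones belonged to the NuRD subunit Mbd2 (0.17, SE 0.05, adjusted p = 0.0588), the deacetylase Sirt6 (-0.23, SE 0.08, adjusted p = 0.0836) and the CoREST subunit Phf21a (-0.37, SE 0.19, adjusted p = 0.277), and against major clones to Rbbp4 (0.26, SE 0.10, adjusted p = 0.335) and the SIN3 subunit Suds3 (0.17, SE 0.07, adjusted p = 0.35).

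Gut segment was compared next. In undivided tumours SI20 against SI10 gave no call among the members, beside 0.17% of 16511 genes, and 2 of 10 members had an unadjusted p under 0.05, beside 7.62% of all genes. Fibroblast markers had a median difference of 0.93 and replication markers of 0.29 there, with no marker past the adjusted threshold. Hdac9 ranged from 6.36 to 94.1 normalised counts in 12 SI10 tumours (median 29.1) and from 0 to 36.3 in 11 SI20 tumours (median 14.6), a log2 difference of -1.25 (SE 0.57, p = 0.0407, adjusted p = 0.64, limma), which was -0.38 in the female and -1.92 in the male mouse alone. The 2 tumours with Hdac9 at 0 are both male SI20 tumours and enter at a log2 level of 0. The overall and the male value therefore depend on them and on the pseudocount of 1. Mean log2 levels were 4.66 ± 1.21 in SI10 and 3.46 ± 1.76 in SI20 (SD). Hdac5 ranged from 525 to 1139 in SI10 (median 693) and from 400 to 1187 in SI20 (median 517), a log2 difference of -0.35 (SE 0.16, p = 0.036, adjusted p = 0.624, limma). Hdac2 differed by 0.04 (SE 0.16, interval -0.28 to 0.37). In 17 divided tumours with both clones from 1 of these segments, 0.28% of 16436 genes and no member passed. Here Hdac9 alone had an unadjusted p under 0.05 (beside 14.3% of all genes). It kept the sign it had in undivided tumours (-0.89, SE 0.31, p = 0.00941, adjusted p = 0.242, limma). Its mean log2 levels were 5.40 ± 0.66 in 7 SI10 and 4.51 ± 0.59 in 10 SI20 tumours (SD). The other 9 members lay between -0.11 and 0.19. The 2 sets of tumours share no library but come from the same 2 mice, so they are not separate support.

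The clone gap itself was compared between segments. The major clone held less Hdac2 in 9 of 10 SI20 tumours (mean gap -0.27 ± 0.31, SD) and in 4 of 7 SI10 tumours (-0.03 ± 0.18), and in both SI30 tumours. Hdac4 was higher in the major clone in 8 of 10 SI20 tumours (0.30 ± 0.29) and in 4 of 7 SI10 tumours (-0.04 ± 0.64). The difference between the segments was -0.24 for Hdac2 (SE 0.14, interval -0.53 to 0.05, p = 0.0949, limma) and 0.33 for Hdac4 (SE 0.22, -0.14 to 0.80). No member passed or had an unadjusted p under 0.05, and 0% of 16436 genes passed. Among partners the smallest p of these 3 segment comparisons belonged to Trerf1 in undivided tumours (-0.83, SE 0.28, adjusted p = 0.456), Sirt3 in divided tumours (-0.37, SE 0.12, adjusted p = 0.228) and Sap18 for the gap (-0.51, SE 0.19, adjusted p = 0.998).

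Between the mice more members passed than between the clones. In undivided tumours, male against female with segment as a covariate, 4 of 10 members passed, beside 19.1% of 16511 genes. Hdac6 ranged from 202 to 487 normalised counts in 13 male tumours (median 393) and from 431 to 738 in 10 female tumours (median 596). The groups overlapped between 431 and 487, where male tumours 1, 6, 7, 10 and 18 lay. Its log2 difference was -0.66 (SE 0.13, adjusted p = 0.00171, limma). Hdac1 fell from a median of 4158 (3711 to 4726) in the female to 3583 (2836 to 4074) in the male mouse, by 0.30 on the log2 scale (SE 0.07, adjusted p = 0.00694, limma). Hdac2 fell from a median of 3044 (2115 to 3941) to 2158 (1326 to 3991), by 0.46 (SE 0.16, adjusted p = 0.0457), and Hdac5 rose from 530 (400 to 747) to 694 (463 to 1187), by 0.45 (SE 0.16, adjusted p = 0.0496). Of the 23 tumours, each left out in turn, 15 took away the call of Hdac2, 16 that of Hdac5 and none that of Hdac6 or Hdac1. The calls of Hdac2 and Hdac5 were both lost with no filter and with no trend (adjusted p 0.0571 to 0.0656), that of Hdac2 also with quantile normalization (0.0522) and that of Hdac5 with a pseudocount of 0.1 (0.0504). Markers differed between the mice too: 4 of 6 endothelial markers (median -1.15) and 3 of 11 replication markers (median -0.42) passed as lower in the male mouse, 1 of 7 crypt stem markers as lower and 1 of 7 secretory markers (median 0.51) as higher, and fibroblast markers had a median of -0.73 (7 of 7 below 0). Their part in the members' differences was not tested. Scaling libraries to the same sum shifted the median of all genes from -0.05 to -0.25, took the share of calls that were higher in the male from 53.8% to 22.1%, left Hdac5 at 0.25 (adjusted p = 0.333) and brought Hdac7 past the threshold (-0.77, adjusted p = 0.0353).

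In 17 divided tumours, with segment as a covariate and the mean of both clones per tumour, 2 members passed, beside 13.1% of 16436 genes. Hdac4 was lower in the male mouse by 0.59 (log2 difference -0.59, SE 0.12, adjusted p = 0.00482, limma), with mean log2 levels over all 20 divided tumours of 8.86 ± 0.27 in the male and 9.41 ± 0.24 in the female mouse (SD, n = 10 each). Hdac6 was lower too (-0.32, SE 0.08, adjusted p = 0.0221), a call that was lost without female tumour 20 or 26. Beside them 3 of 7 crypt stem markers (median -0.36), 1 of 11 replication and 1 of 5 immune markers passed as lower in the male mouse. Smooth muscle, endothelial and fibroblast markers had medians of -0.92, -0.84 and -0.75, none of them past the threshold. Hdac2 differed by 0.09 (SE 0.09, interval -0.11 to 0.29) and Hdac1 by -0.06 (SE 0.06, -0.18 to 0.07). Of the partner genes 11 of 64 passed in undivided tumours (17.2%), led by the CoREST subunit Rcor2 (-0.93, SE 0.19), the mitochondrial deacetylase Sirt3 (0.80, SE 0.18), Mideas (-0.51, SE 0.12), and the NuRD subunits Mta2 (-0.24, SE 0.06) and Rbbp7 (-0.43, SE 0.11), and 7 of 63 in divided tumours (11.1%), among them Ncoa1 (-0.62, SE 0.12), Kat7 (-0.29, SE 0.06), the SIN3 subunit Sap30 (0.52, SE 0.12) and Mideas (-0.48, SE 0.13).

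Whether the mouse difference itself differed between divided and undivided tumours was tested over 43 tumours, a test chosen after seeing the data. No member passed and 0% of 16489 genes did, while 5 members had an unadjusted p under 0.05, beside 12.7% of genes. These were Hdac4 (-0.51, SE 0.20, adjusted p = 0.279), Hdac2 (0.45, SE 0.19, adjusted p = 0.315), Hdac1 (0.20, SE 0.09, adjusted p = 0.334), Hdac10 (-0.41, SE 0.19, adjusted p = 0.353) and Hdac3 (0.19, SE 0.09, adjusted p = 0.364). The calls of Hdac2 and Hdac1 in undivided tumours and of Hdac4 in divided tumours are thus not shown to belong to 1 kind of tumour.

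**Figure D4:**
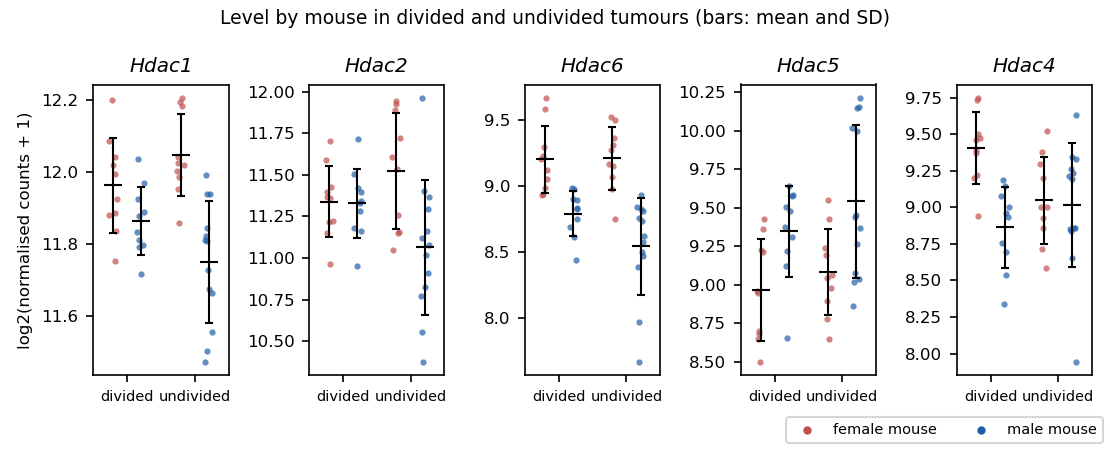
Level on the log2(normalised counts + 1) scale (y axes, which differ between panels) of Hdac1, Hdac2, Hdac6, Hdac5 and Hdac4 in divided tumours (mean of both clones, 10 per mouse) and undivided tumours (10 female, 13 male), with 1 point per tumour and bars at the mean and SD. The calls were Hdac6 (-0.66), Hdac1 (-0.30), Hdac2 (-0.46) and Hdac5 (0.45) in undivided and Hdac4 (-0.59) and Hdac6 (-0.32) in divided tumours, male minus female.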

How the data were processed

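Polyadenylated RNA of 40 microdissected clones and 23 undivided tumours was sequenced by the study with a stranded kit. According to its methods and the submitters' processing notes, reads were checked with FastQC 0.11.9, trimmed with Trimmomatic 0.39, aligned with STAR 2.7.7a for quality control (Picard 2.27.3) on GRCm39, and quantified with Salmon 1.9.0 against Gencode M30, with DESeq2 also named. Each deposited value is a signal: the authors' normalised counts of a gene, whose scaling between libraries is not given in the sources used here. They are not whole numbers, so no count model was used, and no interval for counting error is given.

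Values were taken as log2(value + 1). limma 3.58.1 (R 4.3.3, eBayes with trend) was fitted to all genes with a mean of at least 10 in the libraries compared, with Benjamini-Hochberg adjustment over those genes and a threshold of 0.05. Clone classes came from the study's source data. Clones with 1 tumour number in the labels are pieces of 1 tumour and were paired, with tumour as a block. Undivided tumours were compared with mouse as a covariate. Relations used 100000 permutations (two-sided, Python 3.11.15, scipy 1.17.1). The fits were tested on simulated data with known changes, all larger than the mean clone gap of any member. Recovery of gaps as small as those of the members was not tested. Beside the members, genes of the lists were named where the adjusted p was under 0.05 (at most 5 per comparison) or, with none, up to 3 with the smallest p, and the 5 genes most like Hdac2 by each measure. The members and lists were chosen with earlier results of these data known. 1 listed gene that this rule names is not reported here. The labels give no batch or date.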

Additional observations from a re-analysis of the deposited data

Results flagged for a closer look

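Each member was looked at in 5 groups of 10 libraries (major and minor clones of each mouse, and undivided tumours of the female mouse), 50 in all. In 2 of them the highest or lowest library stood apart from the others, and chance gives about 1 in 20 groups. The gap to the neighbour was compared with the range of the group (critical value 0.466). Hdac5 in the major clone of female tumour 28, from segment SI20, was at 928.5 normalised counts, with the next highest female major clone at 571. Hdac8 in the minor clone of male tumour 19, from segment SI10, was at 84.7, with the next lowest male minor clone at 146. Without these tumours the clone gap was -0.09 for Hdac5 and -0.12 for Hdac8, and neither passed the adjusted threshold with or without them.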

How the results depend on the processing

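The values of single members, other than the clone gap of Hdac2, were compared under other settings. Not counting fits with 1 tumour or clone left out, 558 kept their direction and call, 32 turned, 10 lost and 1 gained a call. With 1 left out, 1418 kept both, 47 turned, 40 lost and 1 gained a call. The cause was not tested. The clone gap of Hdac2 stayed below 0 throughout and passed under no other setting (adjusted p 0.0556 to 0.673). With 1 tumour left out it passed only without female tumour 19 (adjusted p = 0.0499, limma). Without tumour as a replicate block it was -0.20 (adjusted p = 0.296). In the female mouse alone, values turned between clones for Hdac8 (0.17), against minor clones for Hdac1 (0.061), Hdac2 (0.071), Hdac3 (0.064), Hdac7 (0.0078) and Hdac8 (0.13), against major clones for Hdac3 (0.065), Hdac6 (0.025), Hdac7 (0.23) and Hdac10 (-0.19), and for the gap of Hdac2 minus that of Hdac7 (0.00077) and Hdac9 (-0.061). In the male mouse alone they turned between clones for Hdac5 (0.048), against minor clones for Hdac4 (0.22) and Hdac10 (0.090), against major clones for Hdac1 (-0.071), Hdac2 (-0.18), Hdac4 (0.087) and Hdac8 (0.023), for Hdac2 between segments (-0.11) and for the gap of Hdac2 minus that of Hdac8 (0.12). Scaling to the same sum turned Hdac1 (-0.077), Hdac2 (-0.044) and Hdac10 (-0.039) against major clones, and the same without Rn18s turned Hdac1 (-0.037) and Hdac2 (-0.0039). Hdac4 against minor clones turned with quantile normalization (0.024) and with mouse and segment as covariates (0.015), and Hdac8 against major clones with quantile normalization (0.068). The gap of Hdac2 minus that of Hdac9 turned with a pseudocount of 5 (-0.011), quantile normalization (-0.038) and the sum without Rn18s (-0.0018). With libraries at the same sum, r of the Hdac2 gap was 0.71 with that of Hdac1 (adjusted permutation p = 0.0034). It was 0.55 with replication markers (adjusted permutation p = 0.0288) and -0.045 with Rn18s. This scaling adds a shared term to all gaps of a tumour, so no relation is read from these values. No member passed against Hdac2 in either mouse alone (0 of 9), and 2 instead of 4 passed between the mice with no filter or no trend. With each tumour left out in turn, the clone gap lay between -0.23 and -0.17 for Hdac2 and between -0.086 and 0.018 for Hdac5, and that of Hdac2 minus Hdac9 between -0.12 and 0.075. Differences lay between -0.034 and 0.042 for Hdac4 against minor clones, between -0.0050 and 0.027 for Hdac1 and -0.032 and 0.013 for Hdac8 against major clones, and between -0.020 and 0.12 for Hdac2 between segments. Between 0 and 1 members passed between clones and against Hdac2, 2 and 4 between the mice in undivided tumours and 1 and 3 in divided ones. Over all genes the 188 calls between clones, 58.5% of them higher in the major clone, became 85 with no filter, 346 (38.4% higher) with quantile normalization, 292 with the same sum, 602 (27.7% higher) without Rn18s in it, 89 with no trend, 48 by signed rank, 33 in SI10 and SI20 tumours and 33 with male tumours alone, and 0 with female tumours alone or without the block. With 1 tumour left out they numbered 25 to 859.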
